A study of Mus musculus with 4 samples.

Results

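Translation initiation and elongation factors are the proteins that load ribosomes onto mRNA, find the start codon and carry the growing chain forward. They were described here across the fractions of a mouse leukaemia sorted by c-Kit and by a nucleostemin reporter. The genes were chosen by name: a symbol in the probe annotation starting with Eif or Eef and a digit, read by a probe set assigned to 1 gene, leaving out the Eif2ak kinases, Eif2s3x and Eif2s3y. This gave 52 of the 18193 genes on the array, 41 with an Eif and 11 with an Eef symbol. Each was represented by the probe set with the highest mean signal. The rule itself uses no difference between fractions. A further 4 factors (Eef1g, Eif3j1, Eif3j2 and Eif4ebp3) share their probe sets with another gene and were left out. The genes Eif1, Eif2s1, Eif3g and Eif4g1 are not among the 52 either, so the groups described below are not complete.

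The leukaemia arose from bone marrow cells of a transgenic mouse on the C57BL/6 background that had been given HoxA9 and Meis1, and all fractions share this origin. The transgene, NS-GFP, places green fluorescent protein under a stretch of the nucleostemin promoter. Leukaemia cells from bone marrow were sorted on both markers. The cells without c-Kit gave a fraction with low and a fraction with middle NS-GFP, and those with c-Kit a fraction with middle and a fraction with high NS-GFP. They are called GFP-low (c-Kit-), c-Kit- middle, c-Kit+ middle and GFP-high (c-Kit+), in what is here called the order of the sort. With 1 Affymetrix array per fraction there are no replicates, no test across samples can be run and differences are given by size. The number and age of the animals are not given in the sources used here.

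Initiation begins when eIF2, loaded with GTP by its exchange factor eIF2B, brings the initiator tRNA to the small ribosomal subunit together with eIF1, eIF1A, eIF3 and eIF5. The cap-binding protein eIF4E, the scaffold eIF4G and the helicase eIF4A attach this complex to the mRNA, and the 4E-binding proteins compete with the scaffold for eIF4E. The large subunit joins with the help of eIF5B, after which eEF1A delivers aminoacyl-tRNAs and eEF2 moves the ribosome along.

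Signals were quantile normalized and set to a floor of 15.25, the 50th percentile, before log2 ratios were taken. A signal compares 1 gene between fractions and not 1 gene with another. Of the 52 genes, 50 were above the floor on all 4 arrays. The helicase gene Eif4a3 and Eef2kmt, whose product methylates eEF2, were below it on every array in the probe set used. In the order of the sort, Kit had 6.58, which is below the floor, then 26.4, 690 and 479. Gnl3, which encodes nucleostemin, had 183, 584, 1109 and 1299. Of the other sort and leukaemia genes, the granule genes Mpo (193, 763, 7087 and 7309) and Elane (128, 654, 3160 and 3187) were highest in the c-Kit+ fractions. Hoxa9 ran the other way, with 1882, 786, 673 and 509.7.

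The GFP-low array also had the highest summed signal of each list of other blood cell markers, and these values belong beside every ratio taken against it. In order of the sort, the summed signals of the 4 measured B and plasma cell genes were 5629, 815, 165 and 187, those of 5 MHC class II and dendritic cell genes 4470, 1405, 968 and 774, those of 4 monocyte and macrophage genes 14254, 7472, 2938 and 2104, and those of 7 late neutrophil genes 10110, 5154, 3888 and 3877. The 5 T and NK cell genes summed to 289, 30.8, 30.5 and 61.6, and the 3 erythroid genes to 88.9, 22.7, 17.05 and 8.07. On GFP-low, Igha made up 4915 of the B and plasma cell sum and Ccl5 219 of the T and NK cell sum. Cd79b was highest in c-Kit- middle (163) and Nkg7 in GFP-high (42.3). Of the MHC class II and dendritic cell sums, Flt3 made up 1280, 918, 818 and 602 in order of the sort. Cd74 and H2-Eb1 were below the floor in both c-Kit+ fractions, where H2-Aa had 18.9 and 51.2. H2-Ab1 was lowest in c-Kit- middle (60.5). Of the late neutrophil genes, Camp (521, 298, 447 and 358) and Ngp (3385, 1476, 2134 and 2155) were lowest there. Ltf, Mmp9, Mmp8, S100a8 and S100a9 had both c-Kit+ signals below both c-Kit- signals. The defining markers Cd79a, Cd3e, Cd3d, Cd3g and Hba-a1 did not reach the floor on any array. For Actb, the 3' control probe set read 2.50, 3.28, 3.98 and 4.70 times the 5' one, a measure of RNA quality, and for Gapdh 3.37, 3.91, 3.10 and 3.41 times. The part of other cells and of RNA quality in the results was not tested. In these bulk samples, fewer cells of a type and less RNA per cell cannot be told apart. For this reason GFP-high was also compared with c-Kit- middle.

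As a group, the translation factors were moderately higher in GFP-high than in GFP-low. Of 50 genes, 37 had a log2 ratio above 0 (54.6% of all genes tested), and the median was 0.48, against 0.09 for all 11286 genes tested. At least 2-fold higher were 7 genes and 21 were at least 1.5-fold higher. Among all genes the shares were 16.1% at 2-fold and 28.9% at 1.5-fold, so the 7 of 50 at 2-fold lie near the background. No factor was at least 2-fold lower, where 13.7% of all genes were, and 1, the scaffold gene Eif4g3, was at least 1.5-fold lower, where 22.8% of all genes were. The genes past 2-fold were Eef1e1, Eif2b3, Eif1ad, Eef1a2, Eif1ax, Eif2a and Eif2s2. Just below the threshold were Eef1d (1.99-fold), Eif1a (1.99-fold) and Eif4b (1.95-fold).

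**Figure D1:**
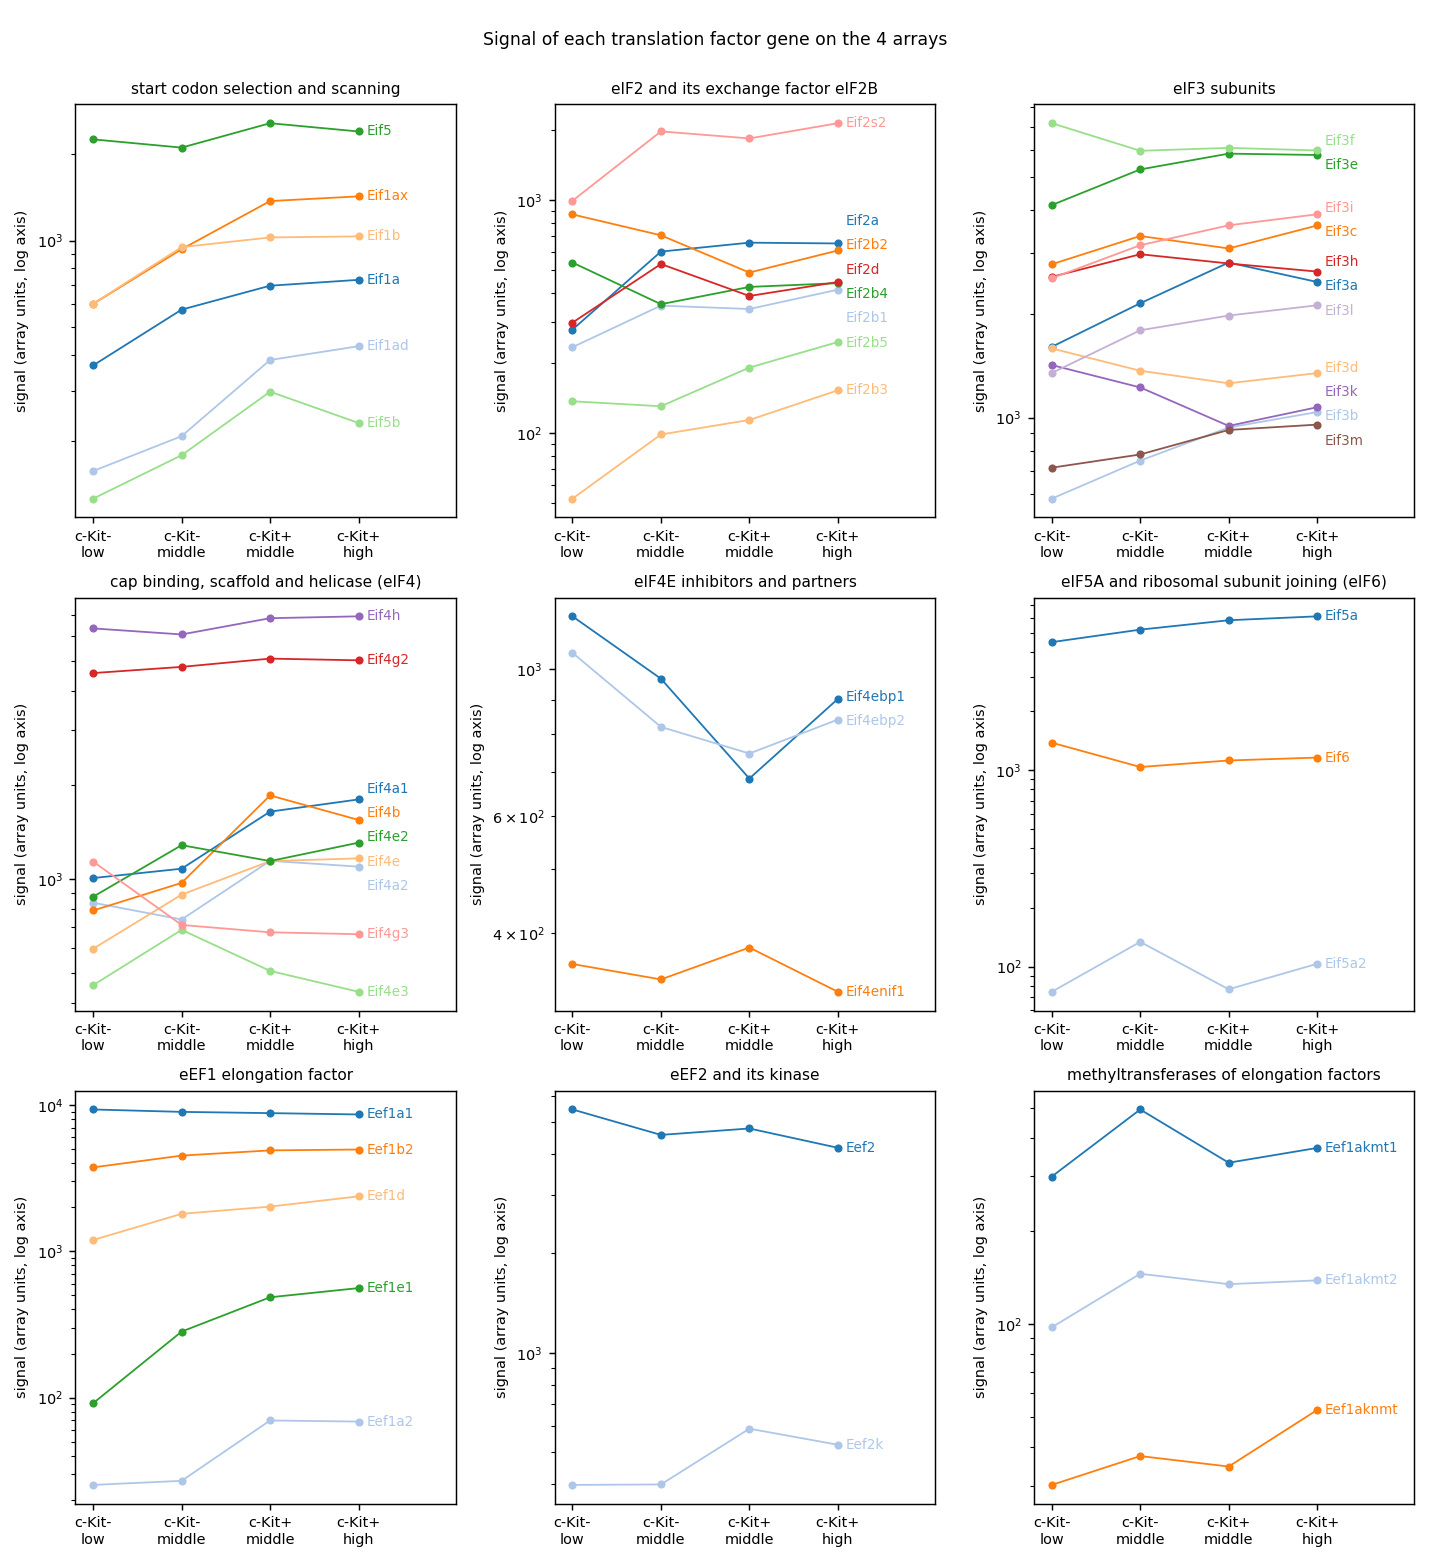
Quantile-normalized signal (array units, log axis) of the 50 translation factor genes above the floor in the 4 fractions, 1 panel per role group, 1 line per gene and 1 array per point. Eef1e1 goes from 91.6 in GFP-low to 559.7 in GFP-high, while Eef1a1 stays between 8599 and 9301.

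The member that differed most was Eef1e1, which despite its name encodes an auxiliary scaffold protein of the multi-tRNA synthetase complex. It has 1 probe set and so no repeat measurement. Its signals were 91.6, 282, 484 and 559.7 in the order of the sort, so that it was higher at every step of the sort. In GFP-high it was 6.11-fold above GFP-low (log2 ratio 2.61), and 3.08-fold of this lay between the c-Kit- fractions. The 250 bases before its annotated start (GRCm38.p6, RefSeq, chr13:38659029-38659278, minus strand) are shown because it leads the list:

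Eef1e1: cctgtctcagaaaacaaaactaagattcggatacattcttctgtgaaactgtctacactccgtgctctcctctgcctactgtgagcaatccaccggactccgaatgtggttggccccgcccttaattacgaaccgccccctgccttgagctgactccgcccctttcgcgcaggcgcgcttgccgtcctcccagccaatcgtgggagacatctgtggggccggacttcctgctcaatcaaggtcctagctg

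Genes grouped under start codon selection and subunit joining were higher in GFP-high than in GFP-low in 6 of 6 cases (54.6% of all genes), with a median log2 ratio of 0.93. The 6 include Eif1ad, the highest of them (log2 ratio 1.44). It encodes a protein related to eIF1A that in human cells acts in the maturation of the small ribosomal subunit, so the group name does not describe it. Its signals were 158, 209, 384 and 429 in the order of the sort, a 2.72-fold difference between the ends. Both c-Kit+ signals lay above both c-Kit- signals, and the gene was also 2.06-fold higher in GFP-high than in c-Kit- middle. Its next probe set gave a log2 ratio of 0.50 there, against 1.04, and the value stayed past 2-fold in 6 of 9 alternative settings.

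The gene pair for eIF1A, which stabilises the scanning complex, ran in parallel. The X-linked Eif1ax had signals of 602, 934, 1373 and 1426 (2.37-fold between the ends), and Eif1a had 368, 575, 697 and 730 (1.99-fold). Both were higher at every step in the probe sets used. Eif1b, a close relative of Eif1, had 603, 949, 1026 and 1035, so nearly all of its 1.71-fold difference lay between the c-Kit- fractions (1.57-fold).

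Eif5b, the GTPase of subunit joining, was highest in c-Kit+ middle, with 126, 179, 298 and 232. The member of this group that differed least was Eif5, the GTPase-activating protein of eIF2, with 2252, 2108, 2564 and 2399. Its log2 ratio of 0.09 at the ends did not keep its sign among 5 probe sets, which ranged from -0.60 to 0.78.

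Genes of the eIF2 and eIF2B group differed among themselves. The group of 8 also holds Eif2a and Eif2d, which are subunits of neither complex. Its median was 0.83 at the ends of the sort, with 6 above 0 (54.6% of all genes) and 3 at least 2-fold higher (16.1%). Eif2s2, the beta subunit and the only subunit of eIF2 among the genes chosen, had signals of 995.5, 1977, 1844 and 2144. In this probe set the step between the c-Kit- fractions was 1.99-fold and the 3 upper fractions lay close together. The next one had 394.6, 714, 987 and 1075, with a further step at the middle gate (log2 ratio 0.47, against -0.10). The separate factor Eif2a, an alternative carrier of initiator tRNA, had 279, 602, 658 and 653 (2.16-fold between the c-Kit- fractions). Its next probe set, with 152, 291, 494 and 539, also differed at the middle gate (log2 ratio 0.77, against 0.13).

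Subunits of eIF2B went both ways. Eif2b3, the gamma subunit, had 52.35, 98.7, 114 and 153 in its only probe set and was 2.92-fold higher at the upper end. Eif2b5, the catalytic epsilon subunit, had 137, 130.5, 191 and 246 (1.80-fold), and Eif2b1, the alpha subunit, 234, 353, 341 and 413 (1.77-fold). Eif2b2, the beta subunit, had 870, 708, 489.5 and 609 and was 1.43-fold lower at the upper end, but its next probe set was 1 of those with the opposite sign (log2 ratio 0.29 against -0.51). Eif2b4, the delta subunit, had 540, 358, 425 and 441, highest in GFP-low. Eif2d, which delivers tRNA to the ribosome and helps to recycle it, was highest in c-Kit- middle, with 298, 533, 388 and 446.

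The subunits of eIF3, the scaffold complex on the small ribosomal subunit, differed little in the probe sets used. None of the 11 reached 2-fold at the ends (16.1% of all genes higher and 13.7% lower). At the upper end 4 were at least 1.5-fold higher (28.9% of all genes), and the median log2 ratio was 0.42. Eif3b, a core subunit that binds RNA, differed most, with 581, 750, 936 and 1038, higher at every step (1.79-fold). Eif3k, a peripheral subunit, differed most in the other direction, with 1421, 1223, 946 and 1071 (1.33-fold lower). The bright subunits Eif3f (7171, 5962, 6080 and 5976) and Eif3e (4146, 5263, 5850 and 5797) differed in form: Eif3f was highest in GFP-low with the 3 other arrays close together, and Eif3e was 1.41-fold higher in c-Kit+ middle than in GFP-low. Other members lay between, from Eif3d (log2 ratio -0.24) to Eif3l (0.65). Probe sets of a gene could spread further at the ends. Those of Eif3a ran from -0.21 to 1.23, and a dim one of Eif3l gave 1.68. Those of Eif3e stayed at 0.26 to 0.48, and Eif3b has 1 probe set.

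In the eIF4 group, 7 of 9 genes had ratios above 0 at the ends of the sort (54.6% of all genes), with a median of 0.38. None reached 2-fold, where 16.1% of all genes were higher and 13.7% lower. Eif4b, which stimulates the helicase, had signals of 792, 971, 1852 and 1545.5, with both c-Kit+ arrays above both c-Kit- arrays. At the middle gate it was 1.91-fold higher in c-Kit+ cells, the second largest difference of a factor at that gate. The helicase paralogs Eif4a1 and Eif4a2 had the same split by c-Kit. Eif4a1 had 1006, 1078, 1643 and 1798, and Eif4a2 had 839, 741, 1142.5 and 1095. At the middle gate they were 1.52-fold and 1.54-fold higher in c-Kit+ cells. For Eif4a1 all 3 probe sets were higher in GFP-high than in GFP-low (log2 ratios 0.84 to 1.33), and for Eif4b all 3 (0.96 to 1.37).

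Eif4e, the cap-binding protein itself, was higher at every step, with 597, 890, 1140 and 1164 (1.95-fold between the ends). Its 3 probe sets above the floor on all arrays gave log2 ratios of 0.96 to 1.94. Its relatives did not share this form. Eif4e2, a competitor for the cap that can repress translation, had 877, 1282.5, 1141 and 1306. Eif4e3 had 456, 686, 507 and 434, lowest in GFP-high.

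The scaffold genes measured do not include Eif4g1. Among them, Eif4g3 was lower at every step, with 1136, 712, 674 and 665 (1.71-fold lower at the upper end, 1.60-fold of it between the c-Kit- fractions). Its next probe set went further the same way (log2 ratio -1.53), although 2 dim probe sets had the opposite sign. Eif4g2, which lacks the eIF4E-binding part of the other scaffolds, varied 1.11-fold in the probe set used, with 4571, 4784, 5086 and 5022. Its next probe set had 1610, 2193, 2517 and 2443, a log2 ratio of 0.60 at the ends against 0.14. All 4 of its probe sets above the floor on all arrays were above 0 at the ends (0.14 to 0.77). Eif4h, a helper of the helicase, varied 1.14-fold, with 6356, 6080, 6854 and 6949.

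The inhibitors of eIF4E had ratios opposite in sign to that of the cap-binding protein at the ends of the sort. All 3 measured genes of this group had log2 ratios below 0 (median -0.33), where 54.6% of all genes were above 0. None was past 1.5-fold, where 22.8% of all genes were lower. Eif4ebp1 had signals of 1202, 968, 684 and 902, lowest in c-Kit+ middle, and Eif4ebp2 had 1059, 819, 746 and 840, also lowest there. The next probe sets gave log2 ratios of -0.54 and -1.07 at the ends, of the same sign. With the mean of its 3 probe sets, Eif4ebp1 was level (0.02). Eif4enif1, the eIF4E transporter, had 359, 340.5, 380 and 326. Between GFP-high and c-Kit- middle the group's median was -0.06. There Eif4ebp2 was above 0 (0.04), and with the authors' scaling Eif4ebp1 and Eif4enif1 were above 0 as well, so that the direction turned.

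**Figure D2:**
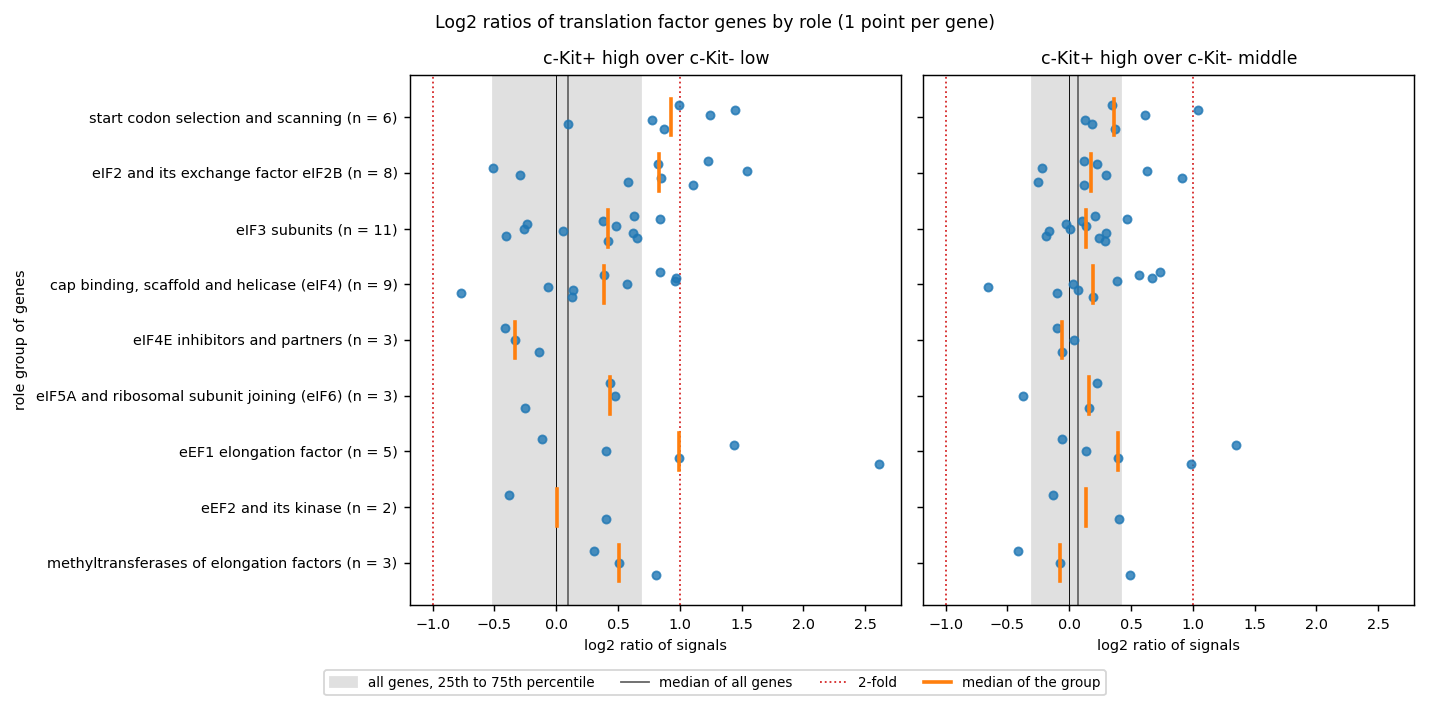
Log2 ratio of signals for the translation factor genes by role group, GFP-high over GFP-low (left) and over c-Kit- middle (right); points are genes, orange bars group medians, the grey band the 25th to 75th percentile of all genes and dotted lines 2-fold. The group medians at the ends run from -0.33 for the eIF4E inhibitors to 0.99 for the eEF1 group, in which Eef1e1 is counted. With c-Kit- middle they lie between -0.07 and 0.40.

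Genes named for elongation factors included the most level gene and also the most variable, Eef1e1, which is not itself an elongation factor. Eef1a1, which delivers aminoacyl-tRNA, had signals of 9301, 8955, 8781 and 8599, a 1.08-fold range and the smallest of the 50 genes. Its paralog Eef1a2, known from neurons and muscle, was dim, with 25.3, 27.0, 69.7 and 68.5. Both c-Kit+ arrays lay above both c-Kit- arrays, and the 2.58-fold difference at the middle gate was the only one of a factor past 2-fold there. It has 1 probe set, and with the floor at the 75th percentile it could not be measured.

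Among the exchange factor subunits of eEF1, Eef1b2 was higher at every step, with 3739, 4501, 4886 and 4953 (1.32-fold). Eef1d had 1193, 1801, 2017 and 2372 (1.99-fold) in the probe set used. Its next one, of similar brightness, had 1530, 1843, 1736 and 2116, a smaller difference at the ends (log2 ratio 0.47, against 0.99) and at the middle gate a lower signal in the c-Kit+ fraction. Eef2 went the other way, with 5450, 4565, 4773 and 4173 (1.31-fold lower at the upper end). Eef2k, the kinase that inactivates eEF2, had 398, 399, 589 and 527, higher in both c-Kit+ fractions, and 1 of its 3 probe sets had the opposite sign at the ends.

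Eif5a, which relieves stalling at proline stretches, was higher at every step, with 4510, 5223, 5831 and 6105 (1.35-fold). Its paralog Eif5a2 had 74.4, 134, 76.6 and 103, highest in c-Kit- middle, and was 1.74-fold lower in c-Kit+ middle than there, the only factor at least 1.5-fold lower at the middle gate. Eif6, which keeps the large ribosomal subunit from joining too early, had 1385, 1041, 1124 and 1163, but a dim second probe set had the opposite sign (log2 ratio 0.54). Of the methyltransferase genes for eEF1A, Eef1akmt1 had 300, 494, 332 and 371, and the dim Eef1aknmt 30.2, 37.4, 34.6 and 52.7. Eef1akmt2 was highest in c-Kit- middle as well (145).

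Each comparison shares arrays with others, so their values are given side by side. At the middle gate, 32 of 50 factors were higher in c-Kit+ cells (52.0% of all genes), 1 of them at least 2-fold (3.57%) and none lower (5.30%). At 1.5-fold, 7 were higher (13.0%) and 1 lower (13.1%), and the median log2 ratio was 0.13, against 0.02 for all genes. The 7 were Eef1a2, Eif4b, Eif1ad, Eef1e1, Eif5b, Eif4a2 and Eif4a1. Between the c-Kit- fractions, 34 factors were higher in the middle than in the low gate (51.8%), 2 of them at least 2-fold (6.66%) and none lower (5.48%), namely Eef1e1 and Eif2a. There 13 were at least 1.5-fold higher (16.6%) and 2 lower (14.8%), with a median of 0.28 against 0.03 for all genes. Under the authors' own scaling this split of 13 and 2 became 3 and 4, as the shares of all genes went to 8.52% and 27.4%.

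Between the c-Kit+ fractions the factors hardly differed. In GFP-high, 33 were above their level in the middle gate (53.2%), and no factor was 2-fold higher or lower (1.02% of all genes in each direction), and 1, Eef1aknmt, was 1.5-fold higher (6.24%) and none 1.5-fold lower (4.73%). The median log2 ratio was 0.05, against 0.02. Set against c-Kit- middle, GFP-high had 36 factors above 0 (55.4%) and 2 past 2-fold, Eef1a2 and Eif1ad (4.89%), and none lower (6.54%). At 1.5-fold 8 were higher (16.5%) and 1, Eif4e3, was lower (13.9%), with a median of 0.17 against 0.07. Under that scaling this split of 8 and 1 became 13 and 0, with 22.8% and 11.04% of all genes.

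In the order of the sort, 15 of 50 factors were higher at every step in the probe set used (16.9% of all genes; 7 of 36 in the next probe set) and 2, Eef1a1 and Eif4g3, lower at every step (14.0%). The largest of a factor's 3 steps was that between the c-Kit- fractions for 33 genes, that between the middle gates for 15 and that between the c-Kit+ fractions for 2. Over all genes these shares were 45.8%, 36.2% and 18.0%, and the first step is the one taken against the GFP-low array. From the lowest to the highest fraction, 9 of 50 factors varied at least 2-fold, where 33.9% of all genes did. Besides the 7 named these were Eif4b and Eif5b, both highest in c-Kit+ middle. The factors were brighter on the arrays than genes as a whole. Their median mean signal was 943, against 136 for the 11901 genes above the floor, and 45 of 50 lay in the brighter part of these when split at the median. How far this difference in brightness bears on the shares was not tested.

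The only repeat measurement is another probe set for the same gene, which shows the error of the probes but none of the spread between sorts or animals. For 32 factors another probe set could be compared at the ends of the sort. Over these genes, the log2 ratio from 1 probe set had an SD of 0.33 (0.48 over all 4369 genes so compared), and the sign was the same for 28 of 32 genes. For all 15 factors past 1.5-fold that had a second probe set, it had the same sign. The median log2 ratio was 0.53 in both sets of probe sets. At the middle gate the SD was 0.24 and the sign was the same for 27 of 31 genes, between the c-Kit- fractions 0.29 and 28 of 31, and between the c-Kit+ fractions 0.15 and 24 of 32. Many of the smaller ratios above are within this probe error.

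**Figure D3:**
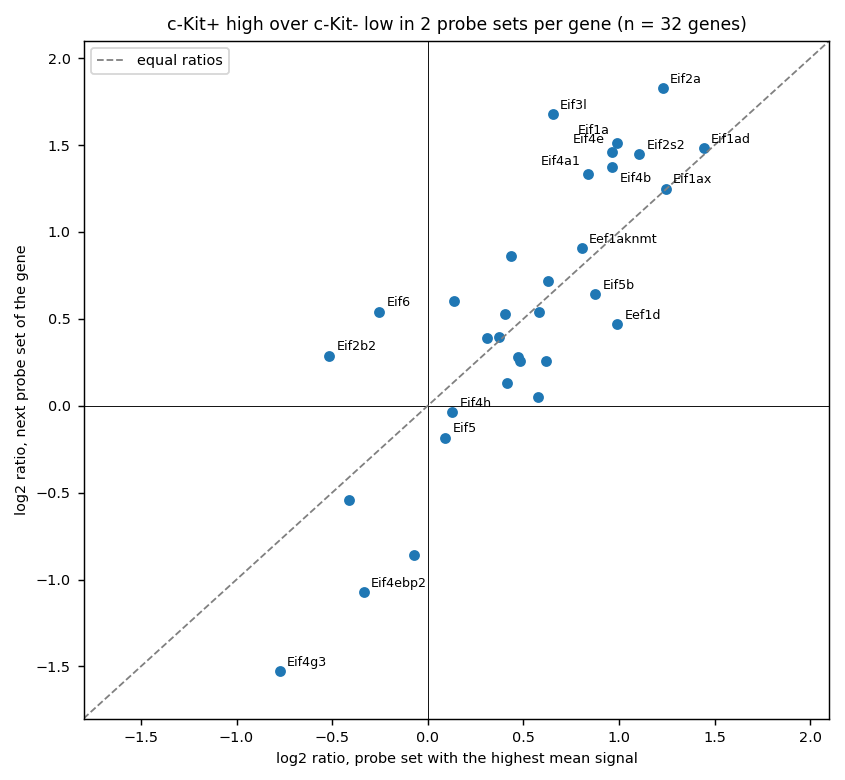
Log2 ratio of GFP-high over GFP-low in the probe set with the highest mean signal (x axis) and in the next probe set of the same gene (y axis) for the 32 translation factor genes with both above the floor; the dashed line marks equal ratios. Points lie on the same side of 0 for 28 of 32 genes, and Eif2b2, Eif6, Eif4h and Eif5 are the exceptions.

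Promoter sequence was examined for the E-box CACGTG, a motif bound by Myc and related factors that reads the same on both strands. Windows of 250 bases before to 50 bases after annotated starts (RefSeq, GRCm38.p6) were available for 41 of the 52 genes. The motif was present for 12 of these 41 (29.3%), against 8.09% of all 27025 genes with a window and 11.8% of 9177 other genes tested at the ends of the sort. Factors with the motif had a median log2 ratio of 0.46 at the ends (12 genes, -0.41 to 0.96) and those without it 0.58 (27 genes, -0.77 to 2.61), so the groups overlapped. A match is a description of these letters and not a binding site. The stretches below are shown for some of the members named above, 5′ to 3′ on the gene's strand. The motif is in capitals, and none passes the annotated start:

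Eif4e, chr3:138527018-138527267, plus strand: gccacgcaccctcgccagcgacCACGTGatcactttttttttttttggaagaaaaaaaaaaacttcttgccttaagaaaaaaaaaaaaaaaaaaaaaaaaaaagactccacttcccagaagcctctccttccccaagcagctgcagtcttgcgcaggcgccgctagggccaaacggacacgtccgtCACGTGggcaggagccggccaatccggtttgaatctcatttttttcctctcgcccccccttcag
Eif4a1, chr11:69672580-69672639, minus strand: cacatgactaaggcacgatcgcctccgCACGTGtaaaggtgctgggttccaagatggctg
Eif1b, chr9:120492555-120492605, plus strand: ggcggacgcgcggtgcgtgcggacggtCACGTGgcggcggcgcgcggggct
Eef2, chr10:81176561-81176620, plus strand: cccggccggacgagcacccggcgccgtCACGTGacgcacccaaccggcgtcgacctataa
Eif3f, chr7:108934320-108934379, plus strand: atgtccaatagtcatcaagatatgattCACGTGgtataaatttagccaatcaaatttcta
Eif4h, chr5:134639473-134639532, minus strand: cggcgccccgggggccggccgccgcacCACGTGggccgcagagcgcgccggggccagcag
Eif5a, chr11:69921428-69921487, minus strand: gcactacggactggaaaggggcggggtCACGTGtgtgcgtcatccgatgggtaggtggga
Eif5a2, chr3:28781108-28781167, plus strand: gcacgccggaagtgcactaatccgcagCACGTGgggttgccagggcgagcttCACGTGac

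The Eif4e stretch lies before the second of its annotated starts and holds the motif 2 times, at 228 and 64 bases before the start. The Eif5a2 stretch also holds it 2 times, at 142 and 117 bases. In Eif1b, Eef2, Eif3f, Eif4h and Eif4a1 the motif begins 24, 43, 68, 96 and 189 bases before the start. The Eif5a motif shown begins 74 bases before 1 annotated start and 185 before another, and a further stretch of that gene holds it at 178 bases. Of the members named above but not shown, Eef2k, Eif3k and Eef1aknmt hold it 31, 44 and 147 bases before the start. Members with the motif thus included Eif4e and Eif4a1, higher in GFP-high, and Eef2 and Eif3f, lower there. The Eef1e1 stretch above holds no CACGTG.

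Other genes of translation and its control were read from lists, whose counts at the ends of the sort stand against 16.1% of all genes at least 2-fold higher, 13.7% at least 2-fold lower and 54.6% above 0. Of 8 termination, release and recycling genes, all had log2 ratios above 0 at the ends of the sort and 3 were past 2-fold (median 0.63). Abce1, which splits ribosomes for reuse, had signals of 242, 450, 781.5 and 713 (2.95-fold), Denr, a partner in recycling, 286, 491, 683 and 815 (2.85-fold), and the release factor gene Gspt1 278, 392, 599 and 707 (2.54-fold). Of 9 measured enzymes of hypusine and diphthamide, the modified residues of eIF5A and eEF2, Dph1 was below the floor on every array. The other 8 were all above 0 and 3 were past 2-fold (median 0.93), led by Dph6 with 48.0, 83.4, 155.5 and 161 (3.36-fold). Of 8 mitochondrial translation factors, 7 were above 0 and 2 past 2-fold (median 0.75), namely Tsfm (48.3, 64.9, 115 and 136) and Tufm (101, 170, 207 and 223).

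Poly(A)-binding proteins and their partners had 3 of 7 past 2-fold and none lower (median 0.78). Pabpc4 had 268, 360, 891 and 768, high in both c-Kit+ fractions, while Pabpc1, the main cytoplasmic poly(A)-binding protein, was level with 7520, 7265, 7265 and 7113. None of these lists was tested, and the median over all genes was 0.09.

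The lists of genes that control the factors had medians below 0 at the ends of the sort, but of 0.04 each for GFP-high over c-Kit- middle. Of 12 measured genes of mTORC1 and MNK control, 2 were at least 2-fold lower in GFP-high than in GFP-low and none higher (median -0.34). These were the kinases that phosphorylate eIF4E. Mknk1 had 494, 301, 130 and 108, a 4.59-fold difference, and Mknk2 had 2874, 1808, 853 and 818, a 3.51-fold difference. Both were also lower in c-Kit+ than in the c-Kit- fraction at the middle gate (2.32-fold and 2.12-fold) and in GFP-high against c-Kit- middle (2.80-fold and 2.21-fold). Mtor had 260, 220, 216 and 259, and Rheb, which activates mTORC1, 1323, 1996, 2358 and 2098. The list holds inhibitors of mTORC1 as well, such as Deptor, so its median gives no direction for mTORC1 activity.

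In the eIF2alpha kinase and ATF4 list of 9 genes, 1 was past 2-fold higher and 2 lower (median -0.12). Eif2ak1, the haem-regulated kinase, had 278, 178.5, 133 and 125 (2.23-fold lower), and Ppp1r15a, a phosphatase subunit that reverses the phosphorylation, 456, 271, 245 and 211 (2.16-fold lower). Eif2ak2, the kinase activated by double-stranded RNA, had 26.5, 26.4, 32.5 and 66.2 (2.50-fold higher). Atf4 was level, with 1137, 994, 1029 and 1144.

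**Figure D4:**
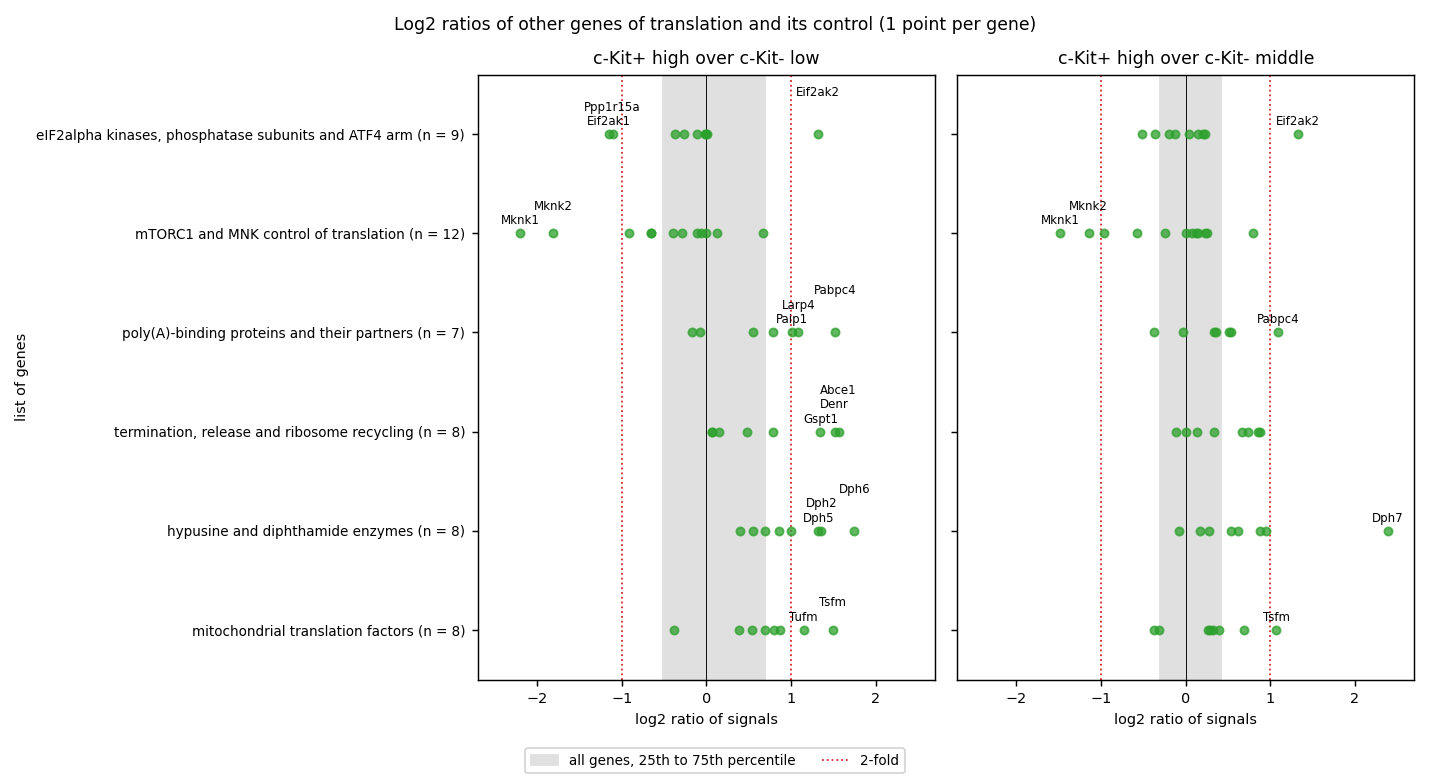
Log2 ratio of signals for other genes of translation and its control by list, GFP-high over GFP-low (left) and over c-Kit- middle (right); points are genes, the grey band the 25th to 75th percentile of all genes and dotted lines 2-fold. Mknk1 (-2.20 and -1.48) and Mknk2 (-1.81 and -1.14) lie below the 2-fold line in both panels.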

How the data were processed

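RNA of the 4 fractions was hybridised to 1 array each. The submitters' processing notes name GCOS 1.2, MAS5 and R 3.0.2, without saying what each was used for. One deposited table gives the intensity of 45101 probe sets on a linear scale. The other deposited table, of 17419 probe sets, gives log2 values that equal the log2 intensity plus a constant for each array (0.42, 0.65, 0.49 and 0.44 in the order of the sort). Control probe sets were left out, and the remaining 45037 were quantile normalized, since trimmed means differed by 21.5%. Signals were floored at 15.25 and taken to log2 (Python 3.11.15, pandas 2.3.3, numpy 2.4.6). The annotation lists 34945 probe sets with 1 gene, 932 with several and 9160 without a gene. By gene ID 34741 were matched to mouse reference symbols (GRCm38.p6), and 204 kept the platform's symbol. A gene was tested where above the floor on at least 1 of the arrays compared. The calculation of ratios was run on simulated data, with less noise than the probe error at the ends of the sort and larger changes than most given here. That run therefore does not show how well differences of the size reported are measured.

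Genes named with values were those varying at least 2-fold, the 5 of highest signal, the highest and lowest of each role group, paralog pairs and up to 3 genes per direction of each list past 2-fold; others were named to complete a count or a pathway, after their values were seen. The genes and lists were chosen with earlier results of these data known. The number of arrays limits the precision.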

Additional observations from a re-analysis of the deposited data

How the results depend on the processing

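Each result was recomputed with the authors' scaling, the second deposited table (49 of the 50 genes), floors at the 25th and 75th percentile, no floor with a pseudocount of 1, the mean of probe sets, the second-brightest probe set (up to 34 genes) and ratios centred on the median of all genes; normalization without GFP-low was added after seeing the data. The median log2 ratio of the factors kept its sign in each comparison wherever it was run (without GFP-low, the 3 comparisons that leave that array out), at 0.38 to 0.50 for the ends of the sort. With the authors' scaling the all-gene median went from 0.09 to -0.05 at the ends, from 0.02 to 0.16 at the middle gate, from 0.03 to -0.25 between the c-Kit- fractions and from 0.07 to 0.20 for GFP-high against c-Kit- middle. Relative to it the factors' medians were 0.50, 0.08, 0.34 and 0.17, against 0.38, 0.11, 0.26 and 0.10. It turned the sign of no factor at the ends, of 8, 6 and 10 of 50 in the other 3, and of 9 between the c-Kit+ fractions, where 42 rather than 33 were above 0. Counts at 2-fold moved as follows, with the share of all genes under the same setting in brackets, and the cause was not tested. At the ends, where 7 were higher, the mean of probe sets gave 11 (12.1% of all genes) and the authors' scaling 8 (12.7%). The 75th percentile floor gave 5 of 48 (14.1%), and the second-brightest probe set 9 of 34 (16.1%) with 2 lower (14.2%). At the middle gate, where 1 was higher, the authors' scaling gave 3 (5.39%) and the second-brightest probe set 2 (4.62%) with 1 lower (4.69%). The second table (3.36%) and the 75th percentile floor (2.13%) gave 0. Between the c-Kit- fractions, where 2 were higher, the authors' scaling (3.54%) and the mean of probe sets (4.62%) gave 1. The second-brightest probe set gave 0 (6.57%) with 1 lower (5.56%). For GFP-high against c-Kit- middle, also 2, the authors' scaling gave 4 (7.06%) and normalization without GFP-low 3 (5.01%). The second table (3.68%), the 75th percentile floor (2.82%), the mean of probe sets (2.76%) and centring (4.02%) gave 1. Genes lower at every step numbered 0 under the authors' scaling and 1 with the second table, the mean of probe sets and the second-brightest probe set, which also gave 7 higher at every step (of 36). No paired analysis was possible because each fraction has 1 array.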

Other observations

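A few values stand outside the groups above. Eif2ak2 was nearly level in 3 fractions (26.5, 26.4 and 32.5) and 66.2 in GFP-high, 2.04-fold above c-Kit+ middle. Dph7, an enzyme of the diphthamide pathway, had signals of 44.0, below the floor (13.3), 52.3 and 79.7, so that its 5.23-fold difference between GFP-high and c-Kit- middle is a lower bound. Rptor, the mTORC1 subunit that recruits substrates, was also lowest in c-Kit- middle, with 171, 63.0, 117 and 109. Deptor, an inhibitor of mTOR, had 318, 331, 173 and 169, splitting by c-Kit without a difference between the NS-GFP gates. Each of these was noticed after the values were seen.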
